A study of Mus musculus with 4 samples.

Results

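Endothelial cells line blood and lymph vessels, and this account describes 9 genes by which they are commonly recognised, Kdr, Flt1, Flt4, Tek, Tie1, Pecam1, Cdh5, Esam and Emcn, in 4 organ primordia of the mouse embryo. The members were chosen by symbol: every non-control probe whose RefSeq accession belongs to 1 of these genes was taken. This gave 11 of 41174 probes and 9 of 16995 genes with a symbol and a value; 7 genes had 1 probe, while Cdh5 and Flt1 had 2 each. The samples were lung, esophagus, stomach and intestine of ICR embryos, an outbred strain, at E11.5, with the day of the vaginal plug counted as E0.5. The embryos were not treated, and no genotype other than the strain is given. Each organ was measured on 1 array in 1 colour, so there was no replicate and no test, and every difference below is between 2 samples. Whether embryos were pooled is not given in the sources used here. The organ was taken from the title and tissue labels, where the stomach is called "gustric", since the extraction text of all 4 samples speaks of stomach.

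The vascular endothelial growth factor (VEGF) receptors Kdr, Flt1 and Flt4 are receptor tyrosine kinases on the endothelial surface: Kdr carries most of the growth signal of VEGF-A, Flt1 binds VEGF-A tightly and acts largely as a trap in the embryo, and Flt4 binds VEGF-C and VEGF-D and comes to mark lymphatic endothelium. Tek (also called TIE2) is the angiopoietin receptor and Tie1 its partner. Cdh5 (VE-cadherin), Pecam1 and Esam are adhesion proteins of the contacts between endothelial cells, and Emcn is a sialomucin of the endothelial surface found mostly on veins and capillaries. At this stage the gut tube and the lung buds carry a capillary plexus in their mesenchyme, and lymphatic vessels are only beginning to form.

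The sequences just upstream of the start sites are shown because endothelial promoters are known for ETS factor sites, whose core is GGAA. RefSeq promoter entries (build GRCm38.p6) were found for 6 of the 9 members, namely Kdr, Flt1, Flt4, Tek, Tie1 and Emcn. For Flt4, Tie1 and Emcn the stretch that lies before every annotated transcript is printed 5′ to 3′ on the gene's strand, with GGAA and its other-strand form TTCC in capitals.
Flt4, chr11:49609429-49609678, plus strand: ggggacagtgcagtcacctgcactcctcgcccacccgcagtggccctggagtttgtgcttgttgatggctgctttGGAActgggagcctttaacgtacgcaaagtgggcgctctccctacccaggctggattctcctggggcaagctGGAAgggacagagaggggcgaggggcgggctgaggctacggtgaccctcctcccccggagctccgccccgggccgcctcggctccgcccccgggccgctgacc
Tie1, chr4:118489850-118490099, minus strand: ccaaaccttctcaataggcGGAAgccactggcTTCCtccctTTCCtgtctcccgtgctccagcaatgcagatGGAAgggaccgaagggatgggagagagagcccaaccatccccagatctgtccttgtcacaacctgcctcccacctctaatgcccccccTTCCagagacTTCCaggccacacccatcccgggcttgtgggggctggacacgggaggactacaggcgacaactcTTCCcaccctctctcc
Emcn, chr3:137340828-137341061, plus strand: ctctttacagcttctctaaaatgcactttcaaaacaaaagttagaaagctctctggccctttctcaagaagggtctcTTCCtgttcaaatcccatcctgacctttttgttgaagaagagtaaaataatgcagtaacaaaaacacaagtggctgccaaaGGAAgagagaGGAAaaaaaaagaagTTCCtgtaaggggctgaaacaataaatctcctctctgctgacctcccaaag

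The Flt4 stretch held 2 such cores, that of Tie1 held 7 and that of Emcn held 4. Of the 250 bases before the listed start, 0 in Kdr and Flt1 and 47 in Tek lay before every annotated transcript. These 3 were therefore not printed, but their windows are counted here. In the 250 bases before the listed start, all 6 members held GGAA on either strand, as did 93.4% of 32851 promoters of that length, whose median was 3 matches. The longer form AGGAAG (or CTTCCT), which contains GGAA, was found in 3 of the 6 members (Flt1, Tie1 and Emcn) against 29.5% of all promoters. The SOX-like letters AACAAT (or ATTGTT) were found in Tek and Emcn, 2 of 6, against 9.42%. The letters TATAAA (or TTTATA) were found in Flt1 alone of the 6, against 12.4%, and GATAA (or TTATC) in 0 of 6, against 22.6%. These matches describe letters in a window and not bound sites.

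Each level below is the log2 of a probe's signal over the 75th percentile of its array, so that 0 means as bright as that percentile. A probe's level depends on its sequence as well as on its transcript, so levels are compared across organs for 1 probe and never between genes. The arrays differed in brightness: 39.0% of spots were well above background in lung, against 67.9% to 74.0% in the other organs, and the lowest level still well above background was −2.39 in lung, far above the −6.92 to −5.75 of the gut arrays. The median SD over the 10 copies of a probe was 0.07 to 0.11 by array, and the scanner's own error for bright member probes was 0.14 to 0.27. Over 2508 genes with a second probe, the SD between probes of an organ difference was larger still, at 0.44 for esophagus minus stomach, 0.60 for stomach minus intestine, 0.86 for esophagus minus intestine and 0.91 to 1.20 for the pairs with lung. Organ-restricted genes followed the labels: Nkx2-1 was highest in lung (2.47), Barx1 in stomach (4.50) and Cdx2 in intestine (1.90), while Sox2 was highest in esophagus (1.09).

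In the gut, several members read lowest in stomach. All 9 were well above background in esophagus, stomach and intestine, and 6 of the 9 (Kdr, Tek, Tie1, Pecam1, Cdh5 and Emcn) had their lowest value of these 3 in stomach, against 16.4% of 12858 genes measured in the same 3 organs. Tek was 3.29-fold lower in stomach than in intestine, Pecam1 1.96-fold, and the other 4 were 1.36-fold to 1.74-fold lower. From both neighbours at once 4 of the 9 (Tek, Tie1, Pecam1 and Emcn) lay apart by more than the scanner's error of up to 0.27, while Kdr and Cdh5 did not from esophagus (0.14 and 0.22). By the larger SD between probes, only Tek and Pecam1 lay apart from both neighbours. Tie1 then fell short against esophagus, and Emcn against both. Of the 6, 5 kept the lowest place in stomach under all 8 other ways of processing that were tried, while Kdr lost it under centring on the median, where its stomach value passed that of esophagus. A bulk measurement cannot tell fewer endothelial cells from less of these RNAs per cell. In lung the members did not move together: Esam was higher there than in every gut segment, and Pecam1 was lower than in every gut segment. Kdr was lowest there by less, short of the SD between probes against esophagus and stomach. Cdh5 and Emcn read highest in lung, but both changed sign against intestine under normexp, a model-based background correction. The second probe of Cdh5 read lower in lung than in esophagus and intestine, but was not well above background in lung.

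Among the VEGF receptors, Kdr measured 1.22 in lung and 1.85, 1.70 and 2.18 in esophagus, stomach and intestine. Its probe was printed 10 times, and the copies ran from 1.06 to 1.41 in lung and, in the gut segments from esophagus to intestine, from 1.74 to 1.93, 1.53 to 1.85 and 2.05 to 2.32. Copies in lung lay below, and copies in intestine above, those of all other organs, whereas esophagus and stomach overlapped. Kdr was 1.94-fold higher in intestine than in lung and 1.39-fold higher in intestine than in stomach. Copies share 1 RNA sample and show only the error of printing and hybridisation.

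Flt1, read by its brighter probe, measured 1.35 in lung and 1.34, 1.02 and 1.01 in esophagus, stomach and intestine. Lung and esophagus lay closer than the scanner's error and are not told apart, and the same holds for stomach and intestine. The step between them, 0.31 from esophagus to stomach, was smaller than the SD between probes for that pair. The dimmer probe of Flt1 measured −1.22 in lung and −0.93, −1.42 and −1.19 in esophagus, stomach and intestine. Both probes thus put esophagus above stomach (by 0.31 and 0.49), and they differed in sign between stomach and intestine (0.02 and −0.23), lung and esophagus (0.02 and −0.28) and lung and intestine (0.35 and −0.02).

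Flt4 measured −4.51, −4.16 and −4.57 in esophagus, stomach and intestine, and in lung its −3.97 was not well above background. Here stomach was the highest of the gut segments, by 1.28-fold over esophagus and 1.33-fold over intestine, while esophagus and intestine lay within the scanner's error. The steps to stomach, −0.35 for esophagus minus stomach and 0.41 for stomach minus intestine, did not exceed the SD between probes for their pairs. That value lies below −2.39, the lowest level well above background in lung, so the lung level of Flt4 is open. No fold against lung is given.

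Of the TIE receptors, Tek measured −1.57 in lung and −1.65, −3.23 and −1.52 in esophagus, stomach and intestine. Lung, esophagus and intestine lay within 0.13 of each other, less than the scanner's error, and stomach stood apart. The stomach was lower by 1.66 than lung, by 1.59 than esophagus and by 1.72 than intestine, and each of these exceeded the SD between probes for its pair. When the background was instead corrected by normexp, a model fitted to each array's raw signals, stomach stayed lower, but by less in the gut: 0.77 for esophagus minus stomach and −0.66 for stomach minus intestine, with lung 1.01 above intestine. Tie1 measured −0.14 in lung and −0.46, −0.86 and −0.06 in esophagus, stomach and intestine. Lung and intestine could not be told apart, esophagus lay below both, and stomach was lowest, 1.74-fold below intestine and 1.32-fold below esophagus. The difference from intestine, 0.80, exceeded the SD between probes for that pair, and that from esophagus, 0.40, did not.

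**Figure D1:**
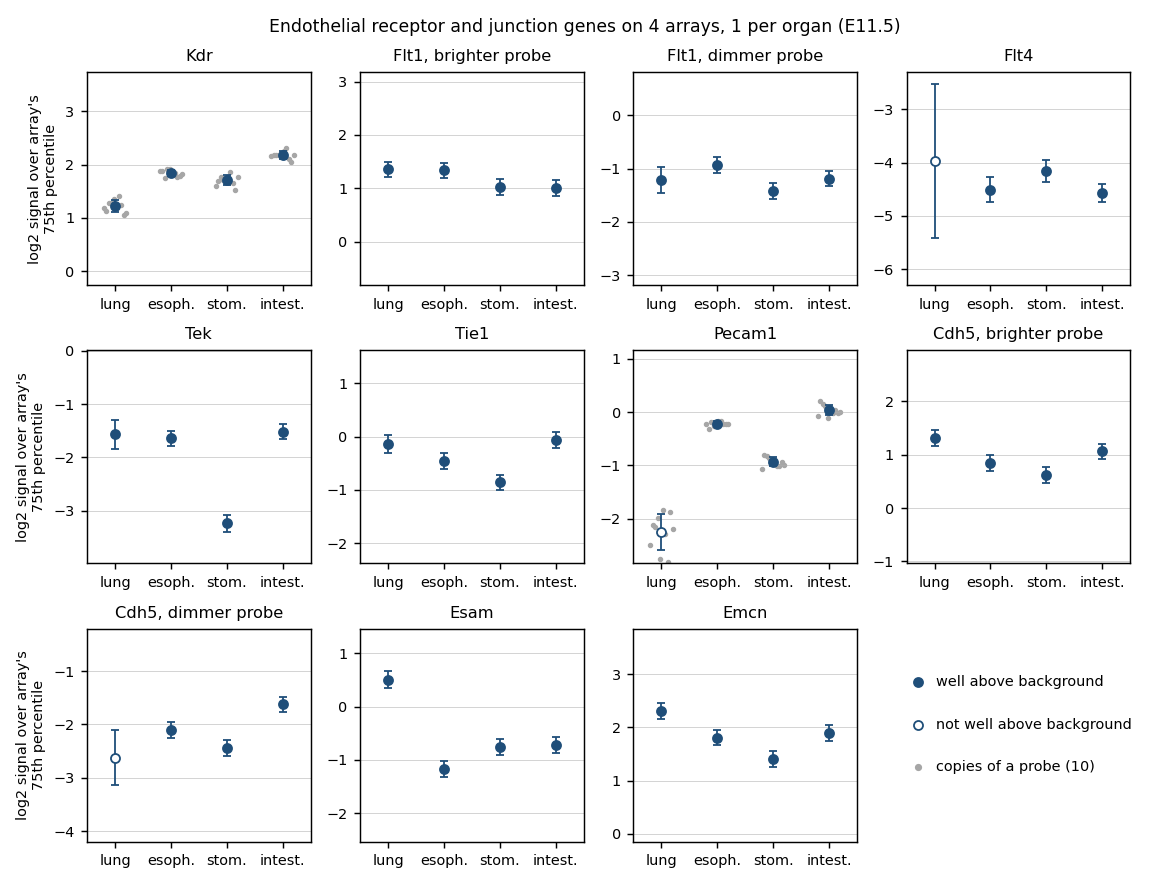
Log2 level, relative to the array's 75th percentile, of the 11 probes of the 9 genes on the lung, esophagus, stomach and intestine arrays, 1 array each, on axes of equal span. Filled points were well above background and open points were not; bars are the scanner's error, or the SD over the 10 copies (grey) for Kdr and Pecam1. Tek reads −3.23 in stomach, while its other 3 values lie between −1.65 and −1.52.

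Among the junction genes, the probe for Pecam1 was also printed 10 times. It measured −0.22, −0.93 and 0.04 in esophagus, stomach and intestine, and its copies ran from −0.32 to −0.17, from −1.07 to −0.81 and from −0.10 to 0.21, with no overlap between any 2 of these organs. The difference of 0.71 between esophagus and stomach and of 0.97 between intestine and stomach exceeded the SD between probes for those pairs. In lung Pecam1 read −2.25 (copies from −2.81 to −1.84), with 4 of its 10 copies well above background, too few to count as detected. By that mean over copies, the gut segments were higher than lung by 4.09-fold in esophagus, 2.49-fold in stomach and 4.90-fold in intestine. These are no strict bounds: the lung mean lay above −2.39, the lowest level well above background there, and was used as it stood. In the deposited table lung minus esophagus was −1.81 on the log2 scale. Under normexp the differences from lung shrank to −0.26 for lung minus esophagus and −0.48 for lung minus intestine, and no fold could be given against stomach.

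Cdh5, by its brighter probe, measured 1.31 in lung and 0.84, 0.62 and 1.06 in esophagus, stomach and intestine. In order of level, each organ lay within 0.27 of the next, and the ends, lung and stomach, were 0.69 apart. The dimmer probe measured −2.11, −2.45 and −1.63 in esophagus, stomach and intestine and was not well above background in lung (−2.62). Both probes placed stomach lowest of the gut segments. For lung they went opposite ways: the brighter probe put lung above intestine by 0.25, and the dimmer put it below by 0.76, with its lung level raised to −2.39. That is no strict bound, since some lung copies of Pecam1 above −2.39 were not well above background either.

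Esam measured 0.51 in lung and −1.17, −0.76 and −0.72 in esophagus, stomach and intestine. Lung was higher by 3.20-fold than esophagus, 2.41-fold than stomach and 2.34-fold than intestine, stomach and intestine could not be told apart, and esophagus was lowest. Emcn measured 2.31 in lung and 1.81, 1.41 and 1.90 in esophagus, stomach and intestine. Esophagus and intestine could not be told apart, and stomach lay below both. The steps to stomach, 0.40 for esophagus minus stomach and −0.49 for stomach minus intestine, did not exceed the SD between probes for their pairs. Lung lay above esophagus and intestine, and was 1.87-fold higher than stomach. That lead of lung was lost under normexp, where lung minus stomach was −0.01 and lung minus intestine −0.65. Esam kept its direction against lung under all 8 alternatives, whereas Cdh5, Flt1 and Emcn each changed sign against lung under normexp.

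Set against all genes, the members' median difference between esophagus and stomach was 0.31, with 7 of 9 higher in esophagus (36.9% of all genes), while the median of 13733 genes was −0.16. Only Tek was at least 2-fold apart here, 1 of 9 against 5.61% of genes that much higher in esophagus, and Flt4 and Esam were the 2 members lower in esophagus. Between stomach and intestine the members' median was −0.47, with 7 of 9 higher in intestine (47.1%), while the median of all genes was 0.04. Tek was again the 1 member past 2-fold, against 4.87% of genes, with Pecam1 just short of it at 1.96-fold. Under normexp the 1 member past 2-fold was instead Flt4, a dim probe, higher in stomach by 1.08 on the log2 scale (12.9% of genes). Normexp added an offset of 50, while the 75th percentile signal was 319 in stomach and 989 in intestine. The part of the offset in this value was not tested. Between esophagus and intestine the members' median was −0.22 against −0.13 for all genes, 7 of 9 were higher in intestine (58.7%), and 0 of 9 were 2-fold apart (20.6%). Relative to the median of all genes, the members stood 0.47 higher in esophagus than in stomach (0.37 to 0.51 over the 8 alternatives) and 0.51 lower in stomach than in intestine (−0.69 to −0.44 for stomach minus intestine).

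Of the pairs with lung, a fold could be given for 8 members. Against stomach, 6 of 8 were higher in lung (55.4% of genes), with a median of 0.70 against 0.11 for all genes; Esam and Tek were at least 2-fold higher in lung (2 of 8, against 13.9%) and Pecam1 lower (1 of 8, against 9.89%). Against esophagus, 6 of 8 were higher in lung (62.8%), with a median of 0.20 against 0.28 for all genes. Esam was at least 2-fold higher in lung (16.3% of genes were) and Pecam1 lower (9.38%). Against intestine the members split 4 to 4 (57.3% of genes higher in lung), with a median of 0.10 against 0.14, and Esam (12.2%) and Pecam1 (8.41%) were again the members past 2-fold, in opposite directions. The members' medians against esophagus and intestine thus lay near those of all genes. At 1.5-fold, 6 of 8 members were apart between lung and stomach (47.2% of genes), 2 of 9 between esophagus and stomach (25.8%) and 3 of 9 between stomach and intestine (27.7%). At 4-fold, Pecam1 alone was apart, between lung and esophagus (3.97% of genes) and between lung and intestine (4.03%), and 0 members were for lung and stomach (4.39%), esophagus and stomach (2.27%) or stomach and intestine (2.69%). For Pecam1 this rests on a lung value not well above background, and in the deposited table lung minus esophagus fell short of 4-fold, at −1.81. The pairs share arrays, so these counts are not independent of each other.

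**Figure D2:**
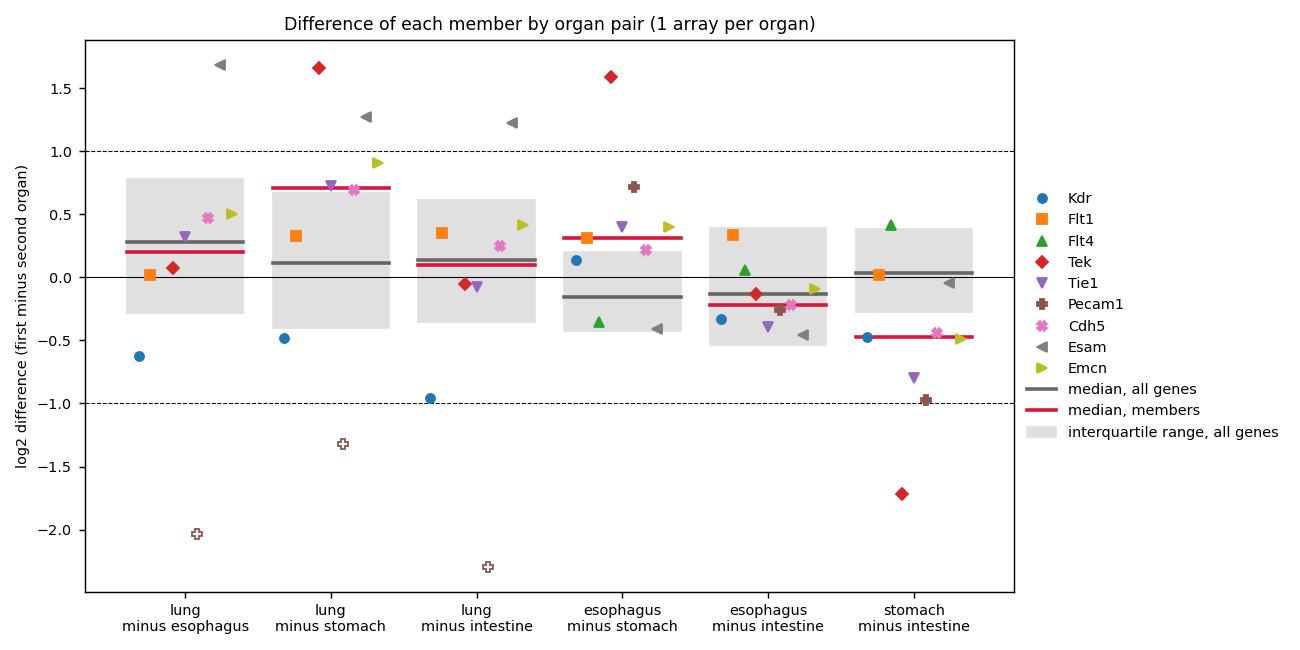
Log2 difference of each member for the 6 organ pairs (first minus second organ), with the members' median in red, the median of all genes in dark grey and the interquartile range of all genes as a grey box. Open symbols are values for which an organ of the pair was not well above background, and dashed lines mark 2-fold. The members' median lies above that of all genes for esophagus minus stomach (0.31 against −0.16) and below it for stomach minus intestine (−0.47 against 0.04).

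The factors that bind these receptors were read from a list of 11 ligands and co-receptors. All 10 with a fold were higher in esophagus than in stomach (36.9% of all genes). The count became 8 of 10 under median centring, where the median of all genes was −0.36, and 9 of 10 under quantile normalisation or normexp. Angpt1, the activating ligand of Tek, measured −1.09, −4.21 and −2.71 in esophagus, stomach and intestine, and was not well above background in lung (−2.31). It was thus lowest in stomach of the gut segments, as Tek was, by 8.67-fold against esophagus and 2.81-fold against intestine. Heart muscle genes were also high on the esophagus array, and the part of heart tissue in the Angpt1 value was not tested. Angpt2, which can oppose Angpt1 at Tek, measured 0.45 in lung and −0.54, −1.31 and −1.20 in esophagus, stomach and intestine, with stomach and intestine within the scanner's error. Ptprb, the phosphatase that acts on Tek and Cdh5, measured 0.59 in lung and 0.23, −0.60 and 0.73 in esophagus, stomach and intestine.

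The ligands of the VEGF receptors followed other orders. Vegfd, a ligand of Flt4, measured −1.91 in lung and −1.55, −4.13 and −5.52 in esophagus, stomach and intestine, high in the first pair of organs and low in the last. Vegfa, the main ligand of Kdr and Flt1, varied less, with 1.48 in lung and 0.96, 0.79 and 0.63 in esophagus, stomach and intestine. Vegfc, the other ligand of Flt4, measured 2.10 in lung and 2.58, 2.33 and 1.88 in esophagus, stomach and intestine. The co-receptor Nrp2 measured 3.96 in lung and 5.02, 4.67 and 5.77 in esophagus, stomach and intestine, and Nrp1 was not well above background in lung (−2.37) and measured −1.09, −1.33 and −0.76 in esophagus, stomach and intestine. Vegfa, Vegfc and Ptprb fell outside the rule for naming genes of other lists and were added, for what they are known to do to the members, after their values were seen.

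Other genes of endothelium stood with the members between stomach and intestine. Of 30 such genes, 25 of the 29 with a fold were higher in intestine than in stomach (47.1% of all genes; 23 to 27 over the 8 alternatives), with a median of −0.46 for stomach minus intestine. Von Willebrand factor (Vwf) was 3.78-fold, the apelin receptor Aplnr 2.82-fold and the tight junction gene Cldn5 1.71-fold higher in intestine. Esm1, a secreted endothelial proteoglycan, and Thbd, thrombomodulin, went the other way, 3.31-fold and 2.21-fold higher in stomach. Between esophagus and stomach, 20 of 28 were higher in esophagus (36.9%), with a median of 0.10. Under median centring 12 of 28 were, while the median of all genes for this pair moved from −0.16 to −0.36. Of the 27 measured in all 3 gut segments, 18 were lowest in stomach (16.4% of all genes), and 11 under median centring (14.2%).

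Endothelial transcription factors gave a mixed picture. Of 14 with a fold, 11 were higher in esophagus than in stomach (36.9% of all genes), led by the ETS factor Erg at −0.72 in esophagus against −2.66 in stomach and −2.65 in intestine. Under median centring 9 of 14 were higher in esophagus, where the median of all genes was −0.36. Between stomach and intestine 8 of 14 were higher in intestine (47.1% of all genes). Lmo2 measured −2.00 in lung and −2.62, −3.43 and −2.35 in esophagus, stomach and intestine, lowest in stomach like Tek and Tie1, while the flow-responsive factor Klf2 measured 1.96, 4.42, 5.50 and 4.52 in the same order and was highest in stomach. Of 13 genes of arterial and venous identity, 6 were higher in esophagus than in stomach (36.9% of all genes) and 5 higher in intestine than in stomach (47.1%), counts near those shares. Under median centring 9 of 13 were higher in intestine, while the median of all genes for stomach minus intestine moved from 0.04 to −0.26.

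All 6 lymphatic genes were higher in esophagus than in stomach (36.9% of all genes), as reported and under all 8 alternatives, with a median difference of 1.23. Some lists share genes. Nrp2 stands on this list and on that of the co-receptors, and Lyve1 on this list and on that of liver sinusoid endothelium. Nrp1 and Ptprb stand among the ligands and co-receptors and among the other genes of endothelium. Foxc2 measured −1.75 in lung and 0.17, −2.32 and −2.62 in esophagus, stomach and intestine. Lyve1 was at its lowest in stomach, at −3.80, 4.93-fold below esophagus, and Prox1, the factor that sets lymphatic identity, was not well above background in lung and measured −3.06, −4.85 and −5.41 in the gut segments. None of these orders was that of Flt4, whose stomach value was the highest of the gut segments, though by less than the SD between probes. Lyve1, Foxc2 and Prox1 are also made by other cells of the embryo, among them macrophages, mesenchyme and endoderm. Mural cell genes, from the pericytes and smooth muscle around vessels, were higher in esophagus than in stomach in 6 of 10 (36.9% of all genes; 5 to 8 of 10 under the alternatives) and higher in intestine than in stomach in 5 of 10 (47.1%).

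**Figure D3:**
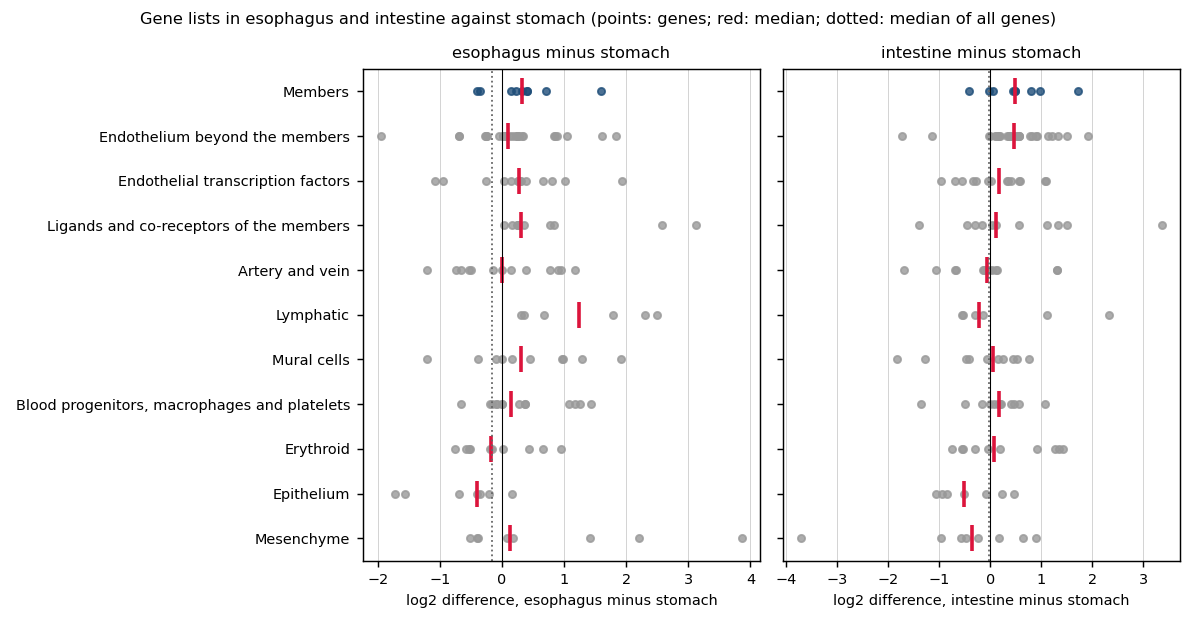
Log2 difference of esophagus (left) and intestine (right) from stomach for the genes of 11 lists, with each list's median in red and the median of all genes dotted. The members and the other endothelial genes lie mostly to the right of 0 against stomach in the right panel (7 of 9 and 25 of 29), and the 6 lymphatic genes lie to the right in the left panel. Under median centring, which is not drawn, 12 of 28 other endothelial genes were higher in esophagus, and the median of all genes was −0.36.

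Marker genes of neighbouring organs moved with some of these differences. On the esophagus array 10 of 10 heart muscle genes were at least 2-fold higher than in stomach (5.61% of all genes) and intestine (11.9%). Their summed level (in units of the array's 75th percentile) was 132.8 against 2.71 and 4.06, and 8.92 in lung. Csrp3 was not well above background in the other 3 organs. The heart's lining is itself endothelial, and of 4 endocardial genes 3 were at least 2-fold higher in esophagus than in stomach (5.61% of all genes). Against intestine the same 4 split 2 to 2, all at least 2-fold (11.9% of all genes for esophagus, 8.72% for intestine). Their summed level was lowest in esophagus, at 6.53 against 9.45 in lung, 7.51 in stomach and 15.5 in intestine. That sum mostly follows Cgnl1, the brightest of the 4 and the 1 that was lower in esophagus (2.31) than in stomach (2.81). On the intestine array 8 of 8 liver genes were at least 2-fold higher than in esophagus (8.72% of all genes) and stomach (4.87%). Their summed level was 65.8 against 10.3 and 3.63, and 26.8 in lung. Of 6 genes of liver sinusoid endothelium, 6 were higher in intestine than in stomach (47.1% of all genes), and 4 of 6 were under normexp. The part of heart or liver vessels in the esophagus and intestine values of the members was not tested.

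Erythroid genes were high in lung against the upper gut. All 9 with a fold were higher in lung than in esophagus (62.8% of all genes) and stomach (55.4%), and 6 of 9 were higher than in intestine (57.3%), with a summed level of 1401 against 362 and 509 (and 354 in intestine), although 5 of 9 were higher than in stomach under normexp. The platelet gene Pf4 measured 3.71 in lung and 3.24, 2.07 and 2.64 in esophagus, stomach and intestine, with stomach lowest. Of its list, 3 of 12 genes measured in the 3 gut segments were lowest in stomach (16.4% of all genes). Of 14 genes of blood progenitors, macrophages and platelets on the array, 7 were well above background in lung, 12 in stomach and all 14 in esophagus and in intestine. Some of these cells also carry Pecam1 and Tek, and their part in the members' values was not tested. Of 7 epithelial genes, 6 were higher in stomach than in esophagus (63.1% of all genes) and 5 higher in stomach than in intestine (52.9%), with a summed level of 101.1 in stomach against 36.5 and 54.6. That sum mostly follows the keratins Krt18 and Krt8 (5.94 and 4.95 in stomach). Epcam and Cldn7 were higher in intestine than in stomach, and Cdh1 was higher in esophagus than in stomach. Whether the share of epithelium bears on the members' stomach values was not tested.

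The 7 members well above background in all 4 organs had different profiles. Their mean profile, each gene centred on its own mean, was 0.31 in lung and −0.04, −0.42 and 0.15 in esophagus, stomach and intestine. The root mean square difference of a member from that profile was 0.06 for Cdh5, 0.09 for Emcn, 0.10 for Tie1, 0.24 for Flt1, 0.48 for Kdr, 0.49 for Tek and 0.51 for Esam. Of 9497 genes measured in all 4 organs, 6941 (73.1%) lay as near to the profile as Esam did. Among the nearest genes that were no members were Mmp2, Nr2c1, Cdk8, Crls1, Fam241a, Shh and Hsd3b7, at 0.04 to 0.06, over 4 arrays. With 4 points many genes share an order, and these are no more than the closest values.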

How the data were processed

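All 4 arrays lay on 1 slide and were quantified by the authors in Agilent Feature Extraction 10.5.1.1, on design 014868 with build mm8, per the file headers. The deposited processed signal is a linear intensity per spot, background-subtracted, per the file headers. The authors' deposited series table holds log2 values, centred as the levels here, which is known only from setting both side by side (column medians −3.56, −2.97, −3.17 and −3.47 for lung, esophagus, stomach and intestine). Labelling used a low-input amplification kit, per the labels' protocols, whose error cannot be told apart from the organ.

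From each log2 processed signal the 75th percentile of its array (over non-control probes) was subtracted. Copies of a probe were averaged and spots with an outlier flag left out; no spot was saturated. A probe counted as well above background where at least 50% of its copies were flagged so. A gene took its brightest probe. Where a probe was dim, its level was raised to the array's lowest level well above background if it lay below that, which gives an approximate bound. A dim probe above that level, such as Pecam1 in lung, kept its value. Symbols came from RefSeq accessions (GRCm38.p6, names only) and covered 59.2% of probes. A difference was counted from 2-fold on, which is a size and no test. Neighbouring organs closer than 0.27, the largest scanner error of a bright member probe, were called not told apart.

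The members and lists were chosen with earlier results of these data known. Named beside the members were Nkx2-1, Sox2, Barx1 and Cdx2, up to 6 genes of each list with the largest range, and the 8 genes nearest the members' mean profile. A gene that falls under this last rule is left out of the text. Alternatives were 3 other scalings, normexp (offset 50) on the median signal, in place of the planned mean signal, which is not used here, the mean over a gene's probes, no filter on dim probes, the deposited table, outlier spots kept, and folds of 1.5 and 4. Software was R 4.3.3 (limma 3.58.1) and Python 3.11.15 (pandas 2.3.3, numpy 2.4.6, matplotlib 3.10.9), with the steps tested on simulated data.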

Additional observations from a re-analysis of the deposited data

How the results depend on the processing

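Precision is limited by 1 array per organ and by the dim lung array, on which Pecam1, Flt4 and the dimmer Cdh5 probe were not well above background. No paired analysis was possible because each organ has 1 array and the groups share fewer than 2 replicate numbers. Of 407 values of single members under the 8 alternatives, 280 moved by less than the spread over copies, 127 moved by more, and 28 had another sign, 17 of them in pairs with lung; the cause was not tested. Centring on the median shifted the median of all genes by up to 0.63, from 0.28 to 0.91 for lung minus esophagus. Under it the members' median was 0.78 for lung minus esophagus, 1.09 for lung minus stomach, 0.12 for esophagus minus stomach, −0.72 for esophagus minus intestine and −0.78 for stomach minus intestine. Between lung and esophagus 4 of 8 members were then at least 2-fold apart, 3 higher in lung (44.9% of all genes) and 1 in esophagus (4.54%). Between lung and stomach 5 of 8 were, all higher in lung (27.8%). Between stomach and intestine 3 of 9 were, all higher in intestine (9.03%). With the percentile taken over probes bright on all 4 arrays, the median was −0.11 for lung minus esophagus, 0.50 for lung minus stomach and −0.11 for lung minus intestine. Under normexp it was −0.19, 0.075 and −0.39 for the same pairs and −0.59 for stomach minus intestine, with 1 member at least 2-fold apart for lung and stomach and 0 for esophagus and stomach, where Tek fell short. With the mean over probes the members' median was 0.55 for lung minus stomach and −0.066 for lung minus intestine, which was 0.25 with no filter on dim probes. Quantile normalisation put 2 of 9 members at least 2-fold apart for stomach and intestine, both higher in intestine (5.68% of all genes). At 1.5-fold the counts were 6 for lung and stomach, 2 for esophagus and stomach and 3 for stomach and intestine. At 4-fold they were 1, 0, 1, 0 and 0 for lung and esophagus, lung and stomach, lung and intestine, esophagus and stomach, and stomach and intestine.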
